A study of Homo sapiens and Mus musculus with 12 samples.

Results

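The BCL2 family decides whether a cell opens its mitochondria and dies by apoptosis. The 10 members described here were chosen by name: BCL2, BCL2L1, MCL1, BAK1, BID, BAD, BIK, BMF, BCL2L11 and PMAIP1 in human RKO cells, and the genes of the same names in mouse colon. All 10 were found in each table, among 15590 genes in RKO cells and 17383 in colon. RNA was sequenced in 12 libraries. In RKO, a colon cancer cell line, every library, untreated ones included, came from cells with a stably held shRNA construct that targets ZNF280C under tetracycline control. For 72 h, 3 libraries' cells were kept with 1 ug/ml doxycycline, which switches the shRNA on, and 3 without it. The colon libraries came from C57BL/6J mice aged 12 weeks, 3 Zfp280c knock-out and 3 wild-type. The labels name 1 shRNA, and they do not say whether replicates were separate cultures or animals, so p-values measure the spread between these libraries, which may be technical.

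In this family, pro-survival proteins (BCL2, BCL-XL from BCL2L1, MCL1) bind and hold the effectors, BAX and BAK, which otherwise form pores in the outer mitochondrial membrane and release cytochrome c. BH3-only proteins (BID, BAD, BIK, BMF, BIM from BCL2L11, NOXA from PMAIP1) start death by occupying the pro-survival proteins or by activating the effectors. In the intestine the family governs the loss of damaged crypt cells, and MCL1 protein turns over quickly, so its RNA level is only a partial guide to its amount.

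The feature that joins all members is the BH3 core, a short helix with a leucine and, further on, a small residue followed by an aspartate. A search of the human coding sequences in GENCODE release 29 (GRCh38) found it once in each of the 10 members, inside 1 exon each time. The pattern was adapted to the members' known cores. It is a leucine, then arginine, alanine or glutamine, any residue, a hydrophobic residue, then glycine, alanine or serine, and aspartate. For each member the longest coding sequence that holds the pattern was taken, so sequences without it were passed over. Of 19541 protein-coding genes, 3.59% hold the pattern in their longest coding sequence, a different choice of sequence. Finding the pattern in the members is therefore only a description. The 36 coding bases around it are shown for 8 members because the core is what the family shares beyond its names; capitals mark the leucine codon and the pair of codons for the small residue and the aspartate.
BCL2L1 (chr20:31721925-31721960, - strand): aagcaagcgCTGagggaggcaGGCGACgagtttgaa
MCL1 (chr1:150578868-150578903, - strand): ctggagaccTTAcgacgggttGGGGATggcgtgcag
BAK1 (chr6:33575390-33575425, - strand): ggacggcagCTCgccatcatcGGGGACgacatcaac
BID (chr22:17739418-17739453, - strand): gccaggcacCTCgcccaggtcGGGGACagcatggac
BAD (chr11:64271625-64271660, - strand): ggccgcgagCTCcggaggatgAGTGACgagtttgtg
BIK (chr22:43127707-43127742, + strand): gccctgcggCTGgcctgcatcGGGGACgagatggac
BMF (chr15:40104198-40104233, - strand): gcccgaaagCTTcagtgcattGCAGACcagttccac
BCL2L11 (chr2:111150094-111150129, + strand): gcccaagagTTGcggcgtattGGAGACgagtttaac
The small residue is a glycine in 8 members, an alanine in BMF and a serine in BAD. The aspartate is written GAC in 9 members and GAT in MCL1. No mouse sequence was used here.

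The targeted gene was lower in both systems. ZNF280C had 123, 99.6 and 79.1 units of signal with doxycycline and 192, 172 and 227 without, which is 51.0% of its level without doxycycline (log2 fold change -0.98 ± 0.15 SE, adjusted p = 0.0276, limma). Zfp280c had 0.09, 0.09 and 0.22 FPKM in knock-out colon, against 2.48, 2.25 and 3.17 FPKM in wild-type colon. That is 5.06% of wild-type (log2 fold change -1.67, adjusted p = 0.123, limma), and the groups did not overlap in either system (exact two-sided permutation p = 0.1, the smallest that 3 against 3 allows). The ZNF280C call held without doxycycline replicate 1 and ended when any other library was left out (adjusted p 0.0621 to 0.0922, limma). It also ended with the replicate number as a block (0.0991) and with a block of libraries that share equal values (0.0769). Zfp280c passed without wild-type replicate 2 (-1.75, adjusted p = 0.00205, limma). Of 8 colon epithelial markers, RKO cells had signal for 5: 769.5 to 853 for KRT8 with doxycycline and 673 to 715 without, 801 to 857 and 829.7 to 883 for KRT18, 214 to 226 and 171 to 181 for CDX2, 116 to 145 and 131 to 142 for VIL1, and 68.5 to 76.5 and 69.0 to 72.7 for EPCAM. Of these 5, CDX2 passed (0.31 ± 0.05 SE, adjusted p = 0.0335, limma), a call that ended when any 1 library was left out (adjusted p 0.0636 to 0.146, limma) and in both blocked fits (0.116 and 0.215). CDH1, KRT19, KRT20 and the 7 lymphocyte markers had no listed value in RKO, so they were not analysed there. In colon, the 8 epithelial markers summed to 10561 to 11571 FPKM in knock-out libraries, against 9050.3 to 11428 in wild-type libraries, a sum carried mostly by Krt8 and Krt19. Cdx2 had 139.9, 151 and 144 FPKM in knock-out colon, against 81.2, 155 and 33.3 in wild-type colon, and Krt20 had 1477, 1720.4 and 1315 in knock-out colon, against 1001, 1424 and 604 in wild-type colon. In both markers wild-type replicate 2 lay within or just above the knock-out range. Neither passed with all 6 libraries, and without wild-type replicate 2 limma called Cdx2 (1.46, adjusted p = 0.0295), Krt20 (0.94, adjusted p = 0.0358) and Vil1 (0.40, adjusted p = 0.0418) higher in knock-out. The part of these markers in the members' values was not tested. RKO values are given as signal, a normalized scale; whether it was divided by transcript length is not given in the sources used here, so RKO levels are compared between libraries and not between genes.

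In RKO cells, the question was how the transcripts differ with doxycycline, which depletes ZNF280C. No library came from doxycycline-treated cells without the shRNA, so the parts of the drug and of the depletion cannot be told apart. The members' log2 fold changes lay between -0.14 and 0.24, and 0 of 10 passed at an adjusted p under 0.05 in limma, while 1.14% of all genes did. That share stands for 178 genes, and their number was 1 under the replicate block, 0 under the block of libraries sharing equal values (1670 at an unadjusted p under 0.05, limma) and 1 to 24 with 1 library left out. At an unadjusted p under 0.05 stood 1 member, BCL2L1, against 17.0% of all genes. Fold changes are on the scale of log2(signal + 1). With 5 members positive and 5 negative (55.1% of all genes were negative), the median log2 fold change was 0.01, beside -0.01 over all genes tested, and the median size was 0.08, beside 0.07. The groups did not overlap in 1 member, MCL1, which was lower with doxycycline, against 21.9% of all genes (8.65% higher and 13.3% lower).

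Among the pro-survival genes, BCL2L1 had the lowest p. It stood at 3257, 3696 and 3398 signal with doxycycline and at 3318, 3053 and 3133 without. Doxycycline replicates 2 and 3 lay above all untreated libraries and replicate 1 below the highest of them, so the groups overlapped. The log2 fold change was 0.12 ± 0.05 (SE; 95% interval 0.01 to 0.23; unadjusted p = 0.0353, adjusted p = 0.248, limma). MCL1 had 10529.7, 10899 and 10546 signal with doxycycline and 11239, 11421 and 10939.8 without. Every treated library lay below every untreated one, by a narrow margin. Its log2 fold change was -0.07 ± 0.03 (95% interval -0.15 to 0.00415; adjusted p = 0.328, limma). BCL2, the founding member, had 109.5, 125 and 104 signal with doxycycline and 129, 119 and 124 without. Replicates 1 and 3 with doxycycline were the lowest of the 6 and replicate 2 lay inside the untreated range. The log2 fold change was -0.14 ± 0.08 (95% interval -0.31 to 0.04; adjusted p = 0.413, limma).

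BAK1, the effector in this set, had nearly level values: 481, 485 and 469.8 signal with doxycycline and 499.5, 479 and 486 without. The groups overlapped, and the 95% interval of its log2 fold change ran from -0.12 to 0.06. BAK1 has 2 processed pseudogenes in GENCODE, BAK1P1 and BAK1P2, and how the counting treated reads shared with them is not given in the sources used here.

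The BH3-only genes showed wider spread between replicates than between treatments. BID, which caspase 8 cleaves to link death receptors to mitochondria, had 605, 586 and 567 signal with doxycycline and 616, 587 and 576 without. BAD, whose product is held in the cytosol when phosphorylated, had 267, 286 and 254 with doxycycline and 255, 258 and 276 without. For these genes the groups overlapped almost wholly, and the 95% intervals were -0.11 to 0.08 for BID and -0.10 to 0.16 for BAD. BCL2L11 encodes BIM, a binder of all pro-survival proteins, and had 153, 191 and 179.9 signal with doxycycline and 170.1, 149.8 and 176 without. PMAIP1 encodes NOXA, a p53-induced partner of MCL1, and had 178, 136 and 182 with doxycycline and 142, 200.2 and 188 without. Here 1 library of each group was low, doxycycline replicate 2 and untreated replicate 1, and the 95% interval was -0.40 to 0.21.

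The remaining BH3-only genes are BMF and BIK. BMF, which the dynein light chain of myosin motors holds in resting cells, had 34.2, 48.2 and 33.4 with doxycycline and 33.4, 24.2 and 41.0 without. Its log2 fold change, 0.24 ± 0.19 (adjusted p = 0.594, limma), was the largest of the members, and rested on a high doxycycline replicate 2 and a low untreated replicate 2: without either it was 0.07 or 0.04. The value 33.4 of BMF was identical to every deposited digit in doxycycline replicate 3 and untreated replicate 1, which share 526 such values over all genes. BIK, a BH3-only protein of the endoplasmic reticulum, had 17.9, 23.2 and 25.8 signal with doxycycline and 19.9, 17.9 and 23.1 without (log2 fold change 0.12 ± 0.15, adjusted p = 0.764, limma).

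Doxycycline replicate 2 was the highest of the treated libraries in 7 of the 10 members. The share over all genes was not computed, so this count only describes the members' values. Transcript GC content moved with the RKO fold changes over all genes (Spearman 0.44 over 13141 genes that share the same 6 libraries, so a description only). The members' longest transcripts ran from 37.2% GC in PMAIP1 to 66.3% in BAD, against a median of 48.3%. With that trend removed, BCL2L1 stood at 0.09 (adjusted p = 0.419, limma), BCL2 at -0.11, MCL1 at -0.04 and PMAIP1 at -0.01, and BAD turned to -0.06. The part of GC content in the members' values was not tested beyond this.

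**Figure D1:**
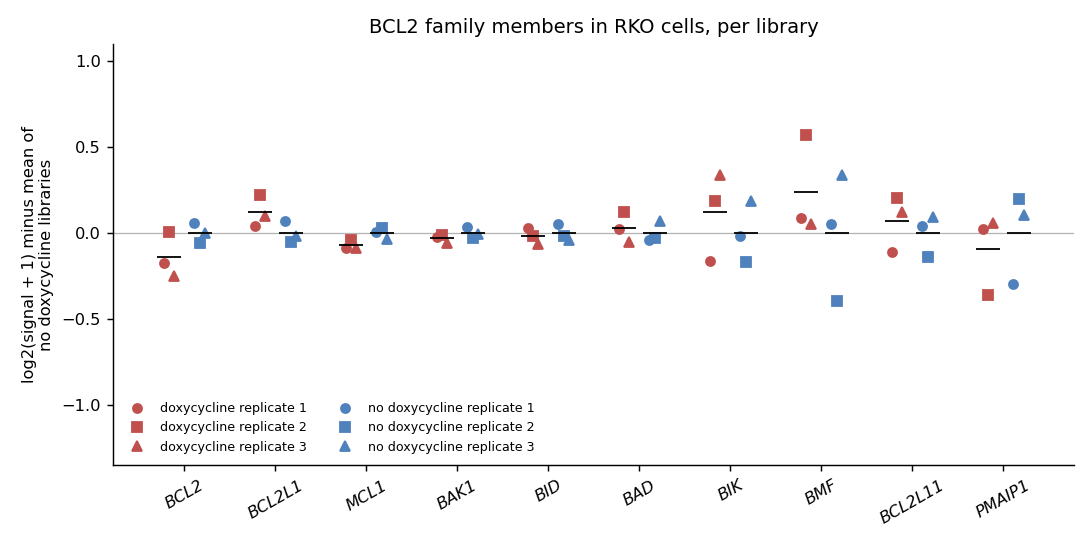
Each point is 1 RKO library, as log2(signal + 1) minus the mean of the 3 untreated libraries; red points are doxycycline, blue points no doxycycline, shapes give the replicate and black lines the group means. Only MCL1 has all red points below all blue ones, and BMF, BIK and PMAIP1 have the widest spread within a group.

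Around the members, 2 genes of the apoptosis machinery passed in RKO cells. BIRC5 encodes survivin, an inhibitor-of-apoptosis family protein that also works in chromosome segregation. It had 694, 697 and 741 signal with doxycycline and 835, 830.1 and 800.4 without, so that every treated library lay below every untreated one. It fell by 0.21 on the log2 scale (SE 0.04, adjusted p = 0.0459, limma). It was the only 1 of the 8 tested genes for inhibitors of apoptosis and proteins released from mitochondria that passed (6 negative, median -0.08, beside -0.01 over all genes). YWHAZ, a phosphoprotein adaptor of the kind that holds phosphorylated BAD, had 5096, 4984 and 5132 signal with doxycycline and 5574, 5750.4 and 5711 without. It fell by 0.16 (adjusted p = 0.0459, limma), the only 1 of 13 partners and regulators of the family that passed (10 negative, median -0.05). Both calls ended when any 1 of the 6 libraries was left out (adjusted p 0.0698 to 0.183 over the 12 fits), and under the replicate block (0.136 for both), the block of libraries sharing equal values (0.221 and 0.259), equal sums (0.0557 and 0.0592) and median centring (0.0650 and 0.0748). YWHAZ also lost its call with the GC trend removed (0.118).

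No gene of the other 3 apoptosis lists passed in limma. Over all genes, 17.0% stood at an unadjusted p under 0.05 and 21.9% did not overlap between groups. Of the rest of the BCL2 family, 8 genes were tested, 3 of them at an unadjusted p under 0.05 (median -0.03). BOK, a BAX-like effector, had 566, 546 and 521 signal with doxycycline and 502, 492 and 500.4 without (0.13, adjusted p = 0.171, limma). BCL2A1, a pro-survival gene, had 749.9, 701 and 756 with doxycycline and 809, 793 and 789.6 without (-0.12, adjusted p = 0.186). In both genes the groups did not overlap. With the GC trend removed, BOK stood at 0.04 (adjusted p = 0.729, limma) and BCL2A1 at -0.05 (adjusted p = 0.534, limma). BAX, the partner effector of BAK1, stood at 725 to 822 with doxycycline and 724 to 799 without, a log2 fold change of 0.03. Of 7 apoptosome and caspase genes, 2 were at an unadjusted p under 0.05 (median 0.000896), among them the apoptosome scaffold APAF1 (-0.15, adjusted p = 0.128, limma). Of 10 death receptor pathway genes, 1 was (median 0.01), TNFRSF10B, a TRAIL receptor (-0.16, adjusted p = 0.0821, limma), followed by the receptor FAS (-0.18, adjusted p = 0.390). After removal of the GC trend, APAF1 stood at -0.10, TNFRSF10B at -0.16 and FAS at -0.12 (adjusted p = 0.366, 0.0864 and 0.689, limma). BCL2L10, BCL2L14 and BCL2L15 had no listed value in RKO, so they were not analysed there.

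In colon, FPKM is per length, so levels can be compared between genes. Mcl1 and Bak1 had the highest levels of the 10 members, and Bcl2 the lowest mean level. Over the 6 libraries Mcl1 (Entrez gene 17210) ran from 111 to 253 FPKM with a median of 152, and Bak1 (12018) from 80.7 to 118 with a median of 108. The ranges of this pair overlapped, and Mcl1 was above Bak1 in 5 of 6 libraries. Bad (12015) followed at 38.4 to 44.4 FPKM, Bcl2l1 (12048) at 26.3 to 34.0 and Pmaip1 (58801) at 12.5 to 30.2. Bad stood apart from its neighbours in that order in all 6 libraries, while Bcl2l1 exceeded Pmaip1 in 4 of 6. Bid (12122) at 6.95 to 9.38 FPKM and Bik (12124) at 4.06 to 5.27 did not overlap with any neighbour. At the low end, Bcl2l11 (12125) at 2.49 to 3.44 overlapped with Bmf (171543) at 1.61 to 3.47, and Bmf with Bcl2 (12043) at 1.32 to 2.12.

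**Figure D2:**
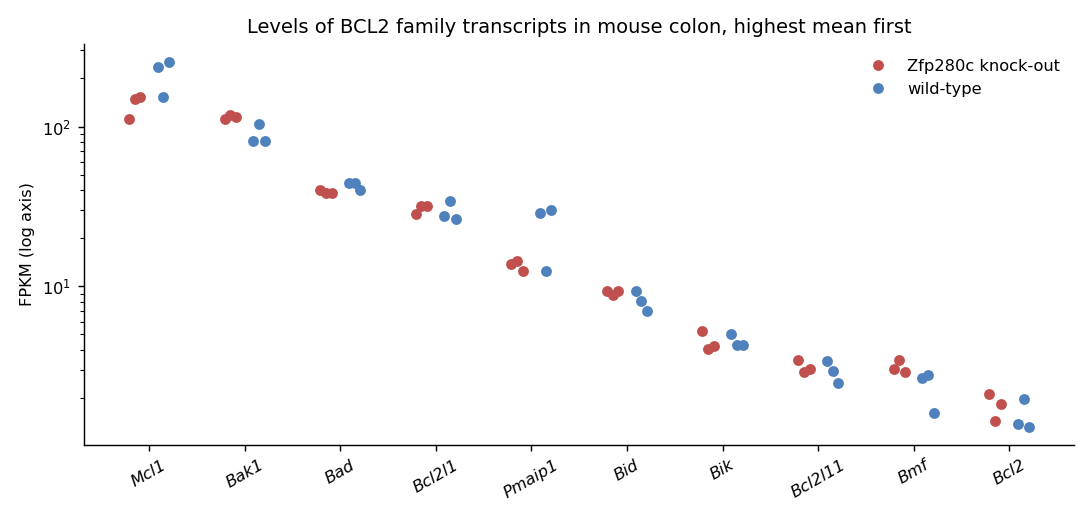
FPKM of the 10 members on a log axis in the 6 colon libraries, with Zfp280c knock-out in red and wild-type in blue, ordered by the mean over all libraries. Levels span from 1.32 FPKM for Bcl2 to 253 FPKM for Mcl1, and the wild-type points of Mcl1, Pmaip1 and Bak1 fall apart into a pair and a single library.

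In colon, the question was what loss of Zfp280c does to the transcripts. In limma 0 of 10 members passed, and 0.00% of all genes did. Fold changes are on the scale of log2(FPKM + 1), which understates those of low genes. At an unadjusted p under 0.05 stood 2 members, Bak1 and Mcl1, against 12.5% of all genes. The groups did not overlap in 2 members, Bak1 and Bmf, both higher in knock-out, against 16.9% of all genes in either direction and 7.13% in that direction (9.79% in the other). Of the members 6 were positive and 4 negative (55.4% of all genes were negative), with a median log2 fold change of 0.07, beside -0.02 over all genes tested. In tissue RNA, fewer cells of a type and less RNA per cell cannot be told apart.

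Wild-type replicate 2 stood apart from the other wild-type libraries in HOX genes, whose RNA varies with position along the gut. The 3 proximal genes Hoxb6, Hoxb7 and Hoxb8 summed to 38.0, 19.6 and 33.2 FPKM in knock-out libraries, against 1.05, 33.4 and 0.58 in wild-type libraries 1, 2 and 3. The 5 distal genes summed to 3.42, 13.5 and 19.9 in knock-out colon, against 338, 15.4 and 586 in wild-type. Hoxb13 carried most of this sum, at 336 FPKM in wild-type replicate 1 and 507 in replicate 3. The distal Hoxd genes were highest in wild-type replicate 3 and stood at 0.09 to 0.96 FPKM in replicate 1. In wild-type replicates 1 and 3 the distal sum was high and the proximal sum near 0, and wild-type replicate 2 lay within or near the knock-out range in both. For the members, the apoptosis lists and the cell type markers, calls are given with and without wild-type replicate 2. Without it the HOX difference follows genotype, and the parts of position and genotype cannot be told apart. With the HOX position score as a covariate, 0 of 10 members stood at an unadjusted p under 0.05 in limma, against 3.68% of all genes.

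Of the pro-survival genes, Mcl1 varied most. It had 111, 149 and 153 FPKM in knock-out colon, against 234, 152 and 253 in wild-type colon. The pair of libraries with distal HOX RNA was high, and wild-type replicate 2 lay between knock-out replicates 2 and 3. The log2 fold change was -0.61 ± 0.22 (SE; 95% interval -1.14 to -0.08; adjusted p = 0.396, limma), and -0.83 ± 0.15 without wild-type replicate 2 (adjusted p = 0.0144, limma). With a score of HOX position as a covariate it was -0.18 (adjusted p = 0.994, limma).

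Bcl2l1 had 28.5, 31.9 and 32.0 FPKM in knock-out colon, against 27.6, 34.0 and 26.3 in wild-type colon. Wild-type replicate 2 was the highest of all 6, and the groups overlapped (log2 fold change 0.08, 95% interval -0.20 to 0.35). Bcl2 had 2.12, 1.43 and 1.83 FPKM in knock-out colon, against 1.37, 1.96 and 1.32 in wild-type colon, with the highest value in knock-out replicate 1 (0.13, 95% interval -0.24 to 0.50). With the HOX position score as a covariate the log2 fold change was -0.10 for Bcl2l1 and -0.09 for Bcl2. Mcl1 made up 78.4%, 81.7% and 81.9% of the FPKM of these 3 genes in knock-out libraries, against 89.0%, 80.9% and 90.1% in wild-type libraries.

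Bak1 had the lowest p of the members. It had 112, 118 and 114 FPKM in knock-out colon, against 81.7, 104 and 80.7 in wild-type colon. Every knock-out library was above every wild-type one, with wild-type replicate 2 between. The log2 fold change was 0.37 ± 0.11 (SE; 95% interval 0.10 to 0.65; unadjusted p = 0.0141, adjusted p = 0.396, limma), and 0.49 ± 0.07 without wild-type replicate 2 (adjusted p = 0.00843, limma). With the position score as a covariate it was 0.18 (adjusted p = 0.994, limma). The ratio of Mcl1 to Bak1 FPKM was 0.991, 1.27 and 1.34 in knock-out libraries, against 2.87, 1.46 and 3.13 in wild-type libraries. It joins the pair of members with the lowest p, whose fold changes have opposite signs, so its separation is not a further result. Again wild-type replicate 2 was next to the knock-outs.

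Among the BH3-only genes, Pmaip1 varied most; its product NOXA binds the MCL1 protein. It had 13.8, 14.4 and 12.5 FPKM in knock-out colon, against 28.9, 12.5 and 30.2 in wild-type colon. Wild-type replicates 1 and 3 had more than any other library, and wild-type replicate 2 was within the knock-out range. The log2 fold change was -0.68 ± 0.32 (95% interval -1.44 to 0.08; adjusted p = 0.404, limma), and -1.07 ± 0.09 without wild-type replicate 2 (adjusted p = 0.00213, limma). With the position score as a covariate it was -0.02. The ratio of Mcl1 to Pmaip1 was 8.06, 10.4 and 12.2 in knock-out colon, against 8.11, 12.1 and 8.37 in wild-type libraries. Mcl1 differed 2.27-fold and Pmaip1 2.41-fold between its highest and lowest library. Both genes were high in wild-type replicates 1 and 3, so their ratio is not a further result.

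The other BH3-only genes differed less. Bmf had 3.01, 3.47 and 2.90 FPKM in knock-out colon, against 2.67, 2.79 and 1.61 in wild-type colon. The knock-outs lay above the wild-types, with wild-type replicate 3 lowest (0.32 ± 0.17, adjusted p = 0.437, limma), and leaving out that library gave 0.14. Bid had 9.34, 8.81 and 9.33 FPKM in knock-out colon, against 9.38, 8.04 and 6.95 in wild-type colon (0.16, adjusted p = 0.540). Bad had 39.9, 38.4 and 38.4 in knock-out colon, against 44.4, 44.1 and 39.9 in wild-type colon. The highest knock-out and the lowest wild-type value of Bad were equal (-0.13, 95% interval -0.31 to 0.05). Bcl2l11 had 3.44, 2.92 and 3.05 FPKM in knock-out colon, against 3.42, 2.96 and 2.49 in wild-type colon (0.07). Bik had 5.27, 4.06 and 4.21 in knock-out colon, against 5.04, 4.26 and 4.31 in wild-type colon (-0.01), the smallest difference of the set.

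**Figure D3:**
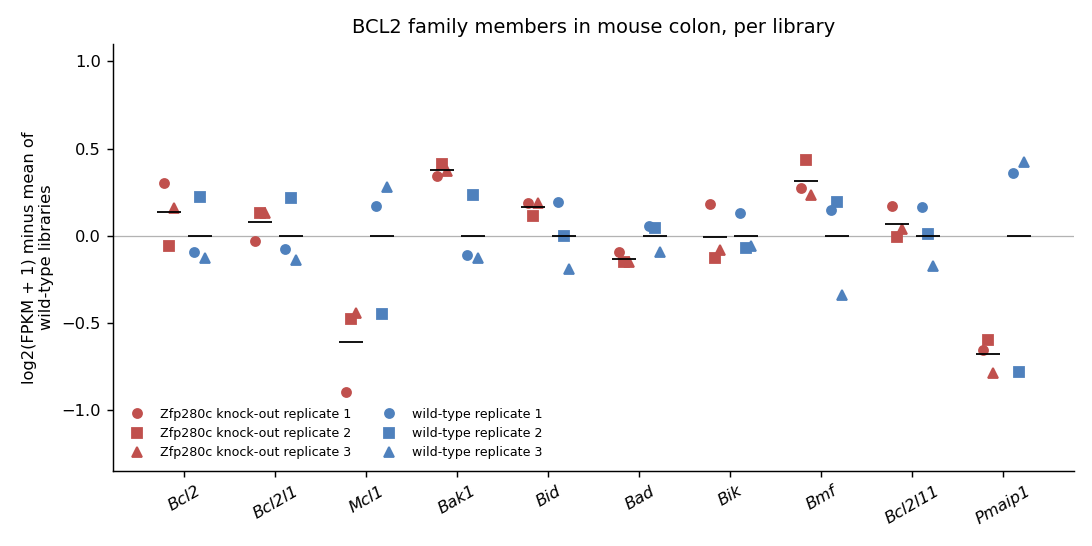
Each point is 1 colon library, as log2(FPKM + 1) minus the mean of the 3 wild-type libraries; red points are Zfp280c knock-out, blue points wild-type, shapes give the replicate and black lines the group means. For Mcl1 and Pmaip1 the blue square, wild-type replicate 2, lies with the red points, and for Bak1 it lies just under them.

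**Figure D4:**
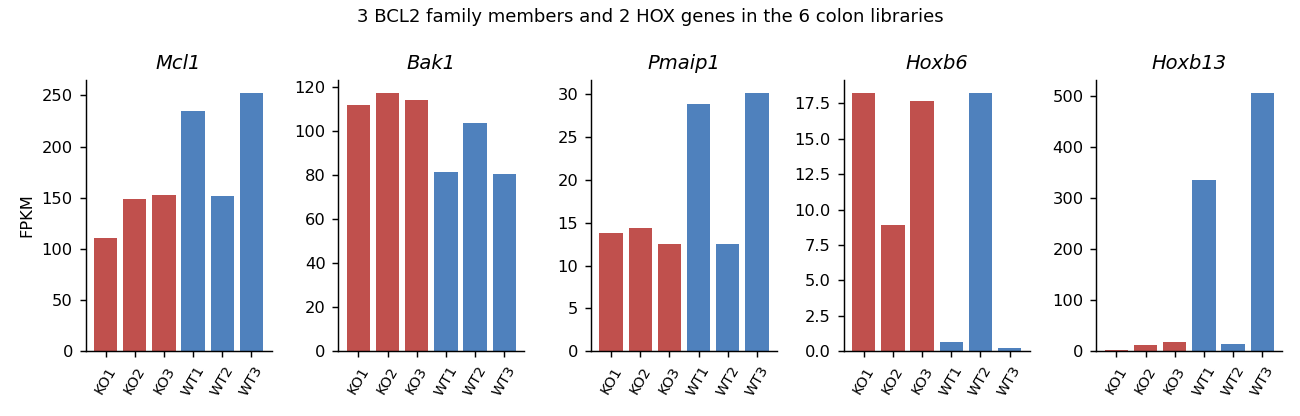
FPKM of Mcl1, Bak1, Pmaip1, Hoxb6 and Hoxb13 in the 3 knock-out (KO, red) and 3 wild-type (WT, blue) colon libraries; bars start at 0. Mcl1 and Pmaip1 are high in the same 2 libraries as Hoxb13, wild-type replicates 1 and 3, where Bak1 and Hoxb6 are low.

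Without wild-type replicate 2, 3 of 10 members passed in limma, Bak1 higher and Mcl1 and Pmaip1 lower in knock-out, against 16.4% of all genes (9.21% higher and 7.19% lower). By role, the pro-survival genes summed to 142, 182 and 186 FPKM in knock-out libraries, against 263, 188 and 280.4 in wild-type libraries. The BH3-only genes summed to 74.8, 72.0 and 70.4 FPKM in knock-out libraries, against 93.8, 74.6 and 85.5 in wild-type libraries.

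**Figure D5:**
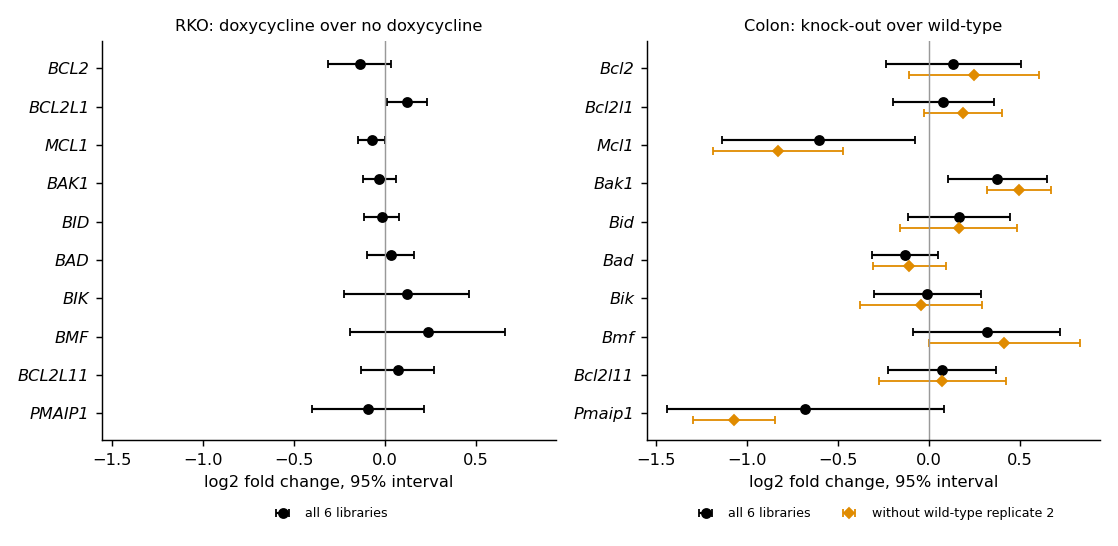
Log2 fold changes of the 10 members with 95% intervals from limma, for doxycycline over no doxycycline in RKO cells (left) and knock-out over wild-type colon (right), where orange diamonds leave out wild-type replicate 2. In RKO cells the points lie between -0.14 and 0.24, and in colon Mcl1 (-0.61), Pmaip1 (-0.68) and Bak1 (0.37) lie farthest from 0 with all 6 libraries.

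Markers of other cell types were present in both colon groups. The 7 lymphocyte markers summed to 9.93 to 22.5 FPKM in knock-out colon, against 13.6 to 35.5 in wild-type colon, with overlapping groups. The 5 myeloid markers summed to 43.1 to 62.3 FPKM in knock-out colon, against 52.5 to 127 in wild-type colon, and wild-type replicates 1 and 3 were the highest of the 6. Lyz2 carried most of this sum, with 38.57, 39.55 and 56.8 in knock-out colon, against 121.24, 47.76 and 76.03 in wild-type colon. Cd68 and Adgre1 were also highest in wild-type replicates 1 and 3, Csf1r was mixed, and Itgam was lowest there (0.58 and 0.51). The 5 smooth muscle markers summed to 382 to 603 in knock-out colon, against 309.7 to 460.1 in wild-type colon, with wild-type replicate 2 at the top of its group. The 4 fibroblast markers summed to 54.5 to 77.5 in knock-out colon, against 52.8 to 70.0 in wild-type colon. The 4 enteric neuron and glia markers summed to 2.97 to 4.56 in knock-out colon, against 1.73 to 3.83 in wild-type colon. The 4 adipocyte markers summed to 26.8 to 34.2 in knock-out colon, against 1.70 to 21.0 in wild-type colon, with Lep listed at 0 in wild-type replicates 1 and 3. Cidec carried most of this sum, with 26.17, 23.97 and 23.2 in knock-out colon, against 4.98, 19.41 and 1.46 in wild-type colon. Adipoq had 6.02, 2.35 and 8.9 in knock-out colon, against 0.18, 1.21 and 0.13 in wild-type colon. In the fit without wild-type replicate 2, 16.4% of all genes passed in limma. Of 7 lymphocyte markers, Cd3e was then called higher in knock-out and Cd79b lower. Of 3 tested myeloid markers, Lyz2 was called lower. Acta2 and Cnn1, of 5 smooth muscle markers, were called higher, as were the 2 tested adipocyte markers, Adipoq and Cidec. That fit called 0 of 4 fibroblast markers and 0 of 1 tested neuron and glia marker. The part of these cell types in the differences of Mcl1, Bak1 and Pmaip1 was not tested.

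The rest of the apoptosis machinery held 0 genes that passed in colon in limma, with 5 at an unadjusted p under 0.05 over the 5 lists, against 12.5% of all genes. Of the other BCL2 family genes, 9 were tested (median -0.14, beside -0.02 over all genes). Bcl2a1b, a pro-survival gene, had 2.19, 1.75 and 2.52 FPKM in knock-out colon, against 3.99, 3.09 and 3.32 in wild-type colon (-0.50, adjusted p = 0.396, limma). Bcl2a1b has near-identical copies, Bcl2a1a and Bcl2a1d, and how reads were divided among them is not given in the sources used here. Bcl2l14 had 24.1, 25.5 and 26.3 FPKM in knock-out colon, against 38.5, 25.9 and 37.9 in wild-type colon (-0.40, adjusted p = 0.396), high in the same pair of libraries as Mcl1. Bax had 55.1, 49.3 and 53.1 FPKM in knock-out colon, against 55.7, 58.8 and 59.5 in wild-type colon (-0.14, adjusted p = 0.439, limma). Its groups did not overlap, as in 16.9% of all genes (9.79% lower in knock-out), and it was added after its values were seen.

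Of 7 apoptosome and caspase genes in colon, 5 were positive (median 0.03). Casp2 had 26.2, 23.4 and 24.8 FPKM in knock-out colon, against 13.1, 23.1 and 11.0 in wild-type colon (0.69, adjusted p = 0.396, limma). Wild-type replicate 2 lay just under the knock-outs. Of 8 inhibitors of apoptosis and released proteins, 5 were negative (median -0.12), with the mitochondrial nuclease Endog (-0.28) and Birc2 (-0.19) first by p. Of 8 death receptor pathway genes, 5 were positive (median 0.07), with the receptors Tnfrsf1a (0.21) and Fas (0.25) first by p. Of 13 partners and regulators, 8 were negative (median -0.08), with the deubiquitinase of MCL1, Usp9x (0.15), and the channel gene Vdac1 (-0.18) first by p. Without wild-type replicate 2, limma called 16.4% of all genes (9.21% higher and 7.19% lower in knock-out). In that fit it called 3 of 7 apoptosome and caspase genes higher, Casp2 and Casp6 among them. Of 8 inhibitors of apoptosis and released proteins it called Xiap and Birc5 higher and Birc3 lower. Of 8 death receptor pathway genes it called Tnfrsf1a and Casp8 higher, and of 9 other family genes Bok higher and Bcl2a1b and Bcl2l14 lower. It called 0 of 13 partners and regulators, with 2 at an unadjusted p under 0.05, against 3512 of all 11344 genes tested in that fit.

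Across all genes, the closest patterns over the 6 libraries of a system were sought for the member with the lowest p, by the root mean square difference of centred log2 values. For BCL2L1 in RKO cells these were PGS1 (0.011), CTTN (0.013) and CLEC11A (0.015). For Bak1 in colon they were Rhebl1 (0.027), Dcp2 (0.030) and Nipsnap3b (0.036). The genes of a system share the same 6 libraries and their normalization.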

How the data were processed

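The authors deposited 1 table per system. Per the submitters' processing notes, HISAT, Bowtie2, HTSeq, edgeR and hg19 were used, without versions, roles or order; the mouse build is not given in the sources used here. The RKO table's name says FPKM after ComBat, but columns sum to 9050161 to 9195211, against 491900.5 to 507206.3 for mouse FPKM, so the deposited values are treated as signal. How the authors normalized them, or adjusted for batch as that name implies, is not given in the sources used here, and the planned limma test was kept. The mouse table holds the authors' FPKM, to 2 decimals. No depth is given, so no counting interval can be stated.

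Tables were analysed separately. On the log2 scale, with a pseudocount of 1 and dropping genes that averaged under 1 (15590 stayed in RKO, 11366 in colon), groups were compared with limma 3.58.1 (R 4.3.3, trended variance), with Benjamini-Hochberg adjustment over all genes tested and a threshold of 0.05. The procedure was tested on simulated data. Errors are SE for fold changes. The members, gene lists and alternatives were chosen with earlier results of these data known. All members are named. Of each pathway list, every gene that passed is named, or otherwise the 2 with the lowest p; BAX and Bax were added after their values were seen. A gene that this rule names is not reported here. GC content, known for 84.3% of RKO genes, is that of a symbol's longest transcript in GENCODE, and its trend was removed by lowess (span 0.3). The block of libraries sharing equal values paired doxycycline 2 with no-doxycycline 2 (310 equal values) and doxycycline 3 with no-doxycycline 1 (526); doxycycline 1 and no-doxycycline 3, with 0 equal values, were paired as those left over. CDX2, Cdx2, Krt20 and Vil1 were also singled out after their values were seen. The HOX position score sets 3 proximal against 5 distal HOX genes, as a difference of mean log2 values. No per-sample column was left unused.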

Additional observations from a re-analysis of the deposited data

How the results depend on the processing

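The alternatives were pseudocounts of 0.1 and 5, no minimum mean and one of 5, equal sums, median centring, the replicate block, each library left out, and, in RKO cells, a block of libraries sharing equal values, removal of the GC trend and the same genes uncorrected, or, in colon, the position covariate. Single members were refitted 160 times in RKO cells and 136 times in colon. Their call changed in 3 of these, all in colon without wild-type replicate 2: Mcl1 (-0.83), Bak1 (0.49) and Pmaip1 (-1.07).

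In RKO cells 178 genes were called over all, 1 under the replicate block, 0 under the block of libraries sharing equal values (limma; 1670 at an unadjusted p under 0.05), 111 with the GC trend removed against 214 uncorrected among the same 13141 genes, and 1 to 24 with 1 library left out. Of the 178, 60 were higher and 118 lower with doxycycline, against 59 and 67 with equal sums and 72 and 59 with median centring. Members called stayed at 0 in all RKO alternatives. ZNF280C kept -0.98 in both blocks, without its call (adjusted p = 0.0991 under the replicate block and 0.0769 under the other), and lay between -1.13 and -0.82 with 1 library left out. It lost its call in 5 of these 6 fits. Replicate numbers did not pair the libraries: deviations of same-numbered libraries correlated at 0.0811, -0.53 and 0.0629 in RKO cells and at -0.45, -0.14 and 0.15 in colon. In colon the replicate block left 0 members and 0 genes called in limma, with 1242 genes at an unadjusted p under 0.05. Without wild-type replicate 2, 1861 genes, 3 members and Zfp280c (-1.75, adjusted p = 0.00205) were called. With any other library left out, 0 genes were called in limma (509 to 767 at an unadjusted p under 0.05), and Zfp280c lay between -1.75 and -1.57 over the 6 fits.

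Signs turned in members near 0. BAD stood at -0.0584 with the GC trend removed. With 1 library left out, BAD ranged from -0.0136 to 0.0726, PMAIP1 from -0.24 to 0.0430, BID from -0.0399 to 0.0106, Bik from -0.11 to 0.0544 and Bcl2l11 from -0.0183 to 0.15. Bik stood at 0.0107 with equal sums and 0.00592 with median centring. With the position covariate, Bcl2 stood at -0.0895, Bcl2l1 at -0.0980 and Bcl2l11 at -0.0184. The cause was not tested. With a minimum mean of 5, Bik, Bmf, Bcl2l11 and Bcl2 could not be fitted. Read depth is unknown, so what it limits could not be measured.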
